A study of Mus musculus with 11 samples.

Results

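Interleukin-6, encoded by Il6, and the chains of its receptor, encoded by Il6ra and Il6st, were followed in alveolar macrophages of mice given CpG. The genes were taken by symbol from the table of 19505 named genes, and each of the 3 is measured by 1 transcript cluster of the array. All 3 passed the filter on low values, which kept 12143 genes. They were chosen by their log2 levels in these same control, acute and resolution arrays, so those levels are given as a description, without a test.

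Interleukin-6 binds the receptor alpha chain, the product of Il6ra, and the pair then recruits gp130, the product of Il6st, which carries the signal through JAK kinases and the transcription factor STAT3. The alpha chain is made by few cell types, among them hepatocytes and some leukocytes including macrophages, whereas gp130 is found on most cells and is shared by other cytokines of the family. Proteases can shed the alpha chain, and the soluble form bound to interleukin-6 can then act on cells that have gp130 alone.

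The study models macrophage activation syndrome (MAS), a state of excessive macrophage activity with high cytokine levels. The animals were female mice of the strain C57BL/6J, purchased when 6 weeks old, and each had 5 injections within 10 days. PBS was injected in the control group (n = 4), and the oligonucleotide CpG 1826, a ligand of the DNA sensor Tlr9, in the acute group (n = 3) and in the resolution group (n = 4). Lavage took place on day 10 for control and acute mice and on day 30 for resolution mice. Control and resolution therefore differ both in treatment and in the day of lavage, and these cannot be told apart. The cells were obtained by bronchoalveolar lavage and purified by adherence. Samples are labelled as biological replicates without naming animals, so the spread between them is that between these samples.

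The 11 arrays had a median intensity between 51.4 and 57.0 and between 8731 and 8952 genes above background. The background of an array is the 90th percentile of its 23 antigenomic probe sets, at 6.12 to 6.24 on the log2(intensity + 1) scale on which all levels below are given. The deposited scale is not stated and was taken as linear from the range of the values. All 12 measured alveolar macrophage markers, among them Siglecf, Marco and Chil3, were above background in every array. In control replicate 4 the summed log2 level of 7 neutrophil markers was 61.7, against 52.0 to 55.2 in the other controls and 51.2 to 54.1 in the acute and resolution arrays, and Retnlg, a neutrophil gene, was above background there and in no other array. Control replicate 4 also had the highest control sums of T cell, B cell and lung epithelium markers, at 51.7, 20.7 and 107.9, but not of monocyte or dendritic cell markers. Differences of Il6ra and Il6st from control are therefore also given without this array.

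The sequences just before the start of each gene are shown because the 3 genes differed in their pattern across the groups. They are 250 bases each, from RefSeq on GRCm38.p6, written 5′ to 3′ on the strand of the gene, with matches to 8 searched motifs in capitals. Il6 is at chr5:30012864-30013113 on the plus strand, Il6ra at chr3:89913197-89913446 on the minus strand and Il6st at chr13:112463820-112464069 on the plus strand.
Il6: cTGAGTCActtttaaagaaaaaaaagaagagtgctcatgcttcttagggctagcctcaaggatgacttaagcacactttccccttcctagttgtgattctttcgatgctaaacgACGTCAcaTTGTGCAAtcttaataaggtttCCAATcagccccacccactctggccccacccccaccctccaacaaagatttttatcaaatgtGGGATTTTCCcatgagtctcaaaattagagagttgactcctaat
Il6ra: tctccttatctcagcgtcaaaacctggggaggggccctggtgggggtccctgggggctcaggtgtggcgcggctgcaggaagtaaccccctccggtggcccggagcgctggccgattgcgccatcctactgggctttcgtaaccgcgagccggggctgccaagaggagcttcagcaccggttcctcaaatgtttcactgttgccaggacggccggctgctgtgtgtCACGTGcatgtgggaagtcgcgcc
Il6st: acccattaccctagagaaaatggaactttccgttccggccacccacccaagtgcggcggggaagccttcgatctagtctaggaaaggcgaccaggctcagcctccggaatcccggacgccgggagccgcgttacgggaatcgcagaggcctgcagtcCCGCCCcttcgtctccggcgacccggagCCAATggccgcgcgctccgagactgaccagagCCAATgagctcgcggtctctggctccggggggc
Both strands were searched. The promoters counted for the shares below leave out those of 1 chromosome. The stretch before Il6 holds 1 match each to an NF-kB motif of 10 letters, GGGATTTTCC in this gene, the AT after GGG being free in the search, found in 1.41% of the 32851 promoters of the table, the C/EBP motif TTGNGCAA (2.61%), the AP-1 motif TGANTCA (6.75%), the CRE core TGACGT (6.47%), here on the minus strand as ACGTCA, and the CCAAT box (33.8%). The stretch before Il6ra holds 1 E-box, CACGTG (6.02%), and none of the motifs found before Il6. The stretch before Il6st holds 2 CCAAT boxes and 1 GC box, GGGCGG (32.7%), the latter on the minus strand. The STAT motif TTCNNNGAA (7.02%) was found in none of the 3 stretches. The stretch before Il6 has a GC content of 42.8%, against 65.2% before Il6ra and 66% before Il6st. A match is a description of these letters and not a site of binding.

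Il6, the cytokine itself, was close to background. Its levels were 6.61, 6.62, 6.93 and 6.32 in the controls and 7.11, 6.68 and 6.80 in the acute arrays, all above the background of their arrays. In the resolution arrays they were 5.69, 5.79, 5.91 and 6.73, and only replicate 4 was above background. The means were 6.62 ± 0.25 (SD, n = 4) in control, 6.86 ± 0.22 (SD, n = 3) in acute and 6.03 ± 0.48 (SD, n = 4) in resolution. Acute and control overlapped, with a difference of 0.24 ± 0.23 (SE). Resolution differed from control by -0.59 ± 0.22 (SE) and from acute by -0.83 ± 0.23 (SE), which set against background is at least 1.35-fold and at least 1.59-fold. Both overlaps came from resolution replicate 4 alone, and without it the differences were -0.83 and -1.07. The same array had the highest Il6ra and the highest Il6st level of its group, as given for those genes.

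Il6ra, the ligand-binding alpha chain, was much higher in the resolution arrays than in either group lavaged on day 10. Its levels were 11.53, 10.98, 11.46 and 9.78 in control replicates 1 to 4, 11.35, 11.98 and 11.15 in acute replicates 1 to 3, and 13.69, 13.74, 13.79 and 14.33 in resolution replicates 1 to 4. All 4 resolution arrays lay above all 7 other arrays, whereas control and acute arrays overlapped. The group means were 10.93 ± 0.81 (SD, n = 4) in control, 11.49 ± 0.43 (SD, n = 3) in acute and 13.89 ± 0.30 (SD, n = 4) in resolution, or mean intensities of 2163, 2973 and 15408.

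The Il6ra difference between resolution and control was 2.95 ± 0.33 (SE), a 7.74-fold higher level and the 5th largest positive difference of the 12143 genes. Against acute it was 2.39 ± 0.36 (SE), or 5.25-fold, the 13th largest. Acute and control, the neighbours at the lower end of the order, differed by 0.56 ± 0.36 (SE), which is less than the SD of 0.81 among the controls. Much of this spread lay in control replicate 4, the lowest of all 11 arrays. This array had the highest control sums of neutrophil, T cell, B cell and lung epithelium markers, whose part in the Il6ra level was not tested. Without it, resolution was 2.57 above control and acute 0.17 above control.

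**Figure D1:**
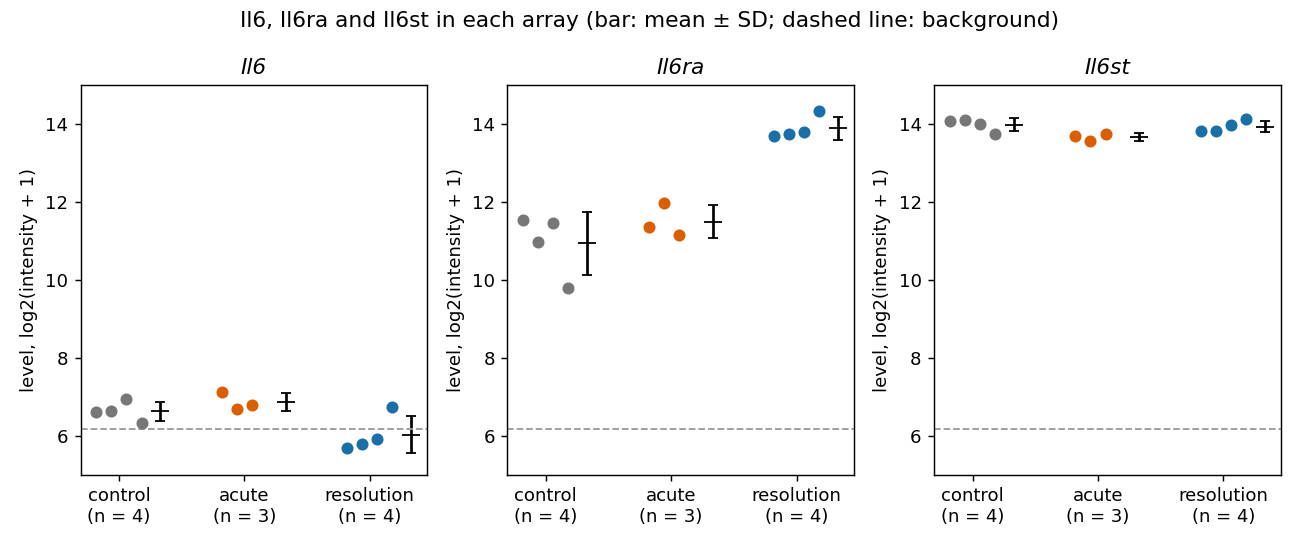
Levels of Il6, Il6ra and Il6st on the log2(intensity + 1) scale in each of the 11 arrays, by group, with the mean and SD beside the points and the mean background as a dashed line. The 4 resolution arrays of Il6ra lie at 13.69 to 14.33, above the 9.78 to 11.98 of the other 7 arrays, while Il6st stays between 13.55 and 14.12 and Il6 lies close to the background.

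Il6st, the signalling chain gp130, was measured at a high intensity in every array and varied little. Its levels were 14.07, 14.11, 14.00 and 13.73 in the controls, 13.69, 13.55 and 13.74 in the acute arrays, and 13.81, 13.81, 13.97 and 14.12 in the resolution arrays. The means were 13.98 ± 0.17 (SD, n = 4), 13.66 ± 0.10 (SD, n = 3) and 13.93 ± 0.15 (SD, n = 4), so that control and resolution, the upper neighbours in the order, differed by less than their spread. The acute arrays were the lowest group. They differed from control by -0.32 ± 0.13 (SE), with overlap through control replicate 4, and from that group without this array by -0.40. The resolution arrays all lay above the acute arrays, by 0.27 ± 0.13 (SE), a 1.20-fold difference. From control to resolution Il6st differed by -0.05 ± 0.12 (SE), beside the 2.95 of Il6ra.

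Counted over the 3 genes, groups were fully separated for 0 of 3 in acute versus control, for 1 of 3, Il6ra, in resolution versus control, and for 2 of 3, Il6ra and Il6st, in resolution versus acute. Over all genes tested these shares were 10.1%, 22.7% and 26.3%. The comparisons share arrays, the controls in the first pair and the resolution arrays in the second, and are not independent of each other. In bulk RNA a lower level from fewer expressing cells and one from less RNA per cell cannot be told apart.

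Markers of other cells were set beside these values. For the counts of each list in resolution versus control, the share of all genes called in that comparison was 18.6%, with 9.6% higher and 9% lower. The summed log2 level of 13 lung epithelium markers was 101.9 to 107.9 in control, 116.2 to 124.2 in acute and 94.2 to 98.9 in resolution arrays. In resolution versus control 4 of 11 tested markers were lower and 0 higher, 36.4% of the list beside 18.6% of all genes. The part of epithelial cells in the Il6ra level was not tested. Of 7 T cell markers, which are listed because some T cells make the alpha chain, Cd3d, Cd3e, Cd3g and Cd8a were below background in every control and resolution array. The other 3 were not: Cd2 had a control mean of 14.45 ± 0.20 (SD, n = 4) and a resolution mean of 14.58 ± 0.17 (SD, n = 4), Il7r was above background in all arrays, and Cd4 in all 4 control and 3 of 4 resolution arrays. Of the 5 tested, 1 was lower, Cd3d, and 0 were higher in that comparison, 20% beside 18.6% of all genes. In the acute arrays Cd3d was above background in all 3, at 6.54 ± 0.34 (SD, n = 3). The sum of this list was 47.0 to 51.7 in control, 48.5 to 52.3 in acute and 45.6 to 47.3 in resolution arrays. The 4 B cell markers were below background in all arrays, with sums of 17.2 to 20.7, 17.1 to 17.8 and 16.3 to 17.1.

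Neutrophils, too, carry the alpha chain. Of the 5 neutrophil markers tested in resolution versus control, 1 was lower, Cxcr2, and 1 higher, Csf3r, 40% beside 18.6% of all genes, and Mmp9 was below background in all arrays. The sums were 52.0 to 61.7 in control, 53.3 to 53.5 in acute and 51.2 to 54.1 in resolution arrays. Among 6 monocyte markers Ly6c2 and Cx3cr1 were below background in all arrays, and the sums were 37.2 to 38.5, 38.7 to 43.3 and 35.9 to 37.5 in control, acute and resolution arrays. Of the 4 tested, 1 was lower in resolution than in control, Treml4, and 1 higher, Ccr2, 50% beside 18.6% of all genes. Ccr2 was above background in 0 of 4 control and 3 of 4 resolution arrays. Its rise was at least 1.15-fold, with overlap of the 2 groups. The Ccr2 call was lost when control replicate 3 or 4, or resolution replicate 2 or 4, was left out (adjusted p = 0.0598 to 0.0662). Among 6 dendritic cell markers 0 of 3 tested differed from control in resolution (also 0 at an unadjusted p under 0.05 in limma, which 31.3% of all genes met), with sums of 34.0 to 36.7, 36.2 to 36.8 and 35.1 to 36.1 in control, acute and resolution arrays.

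Immediate early genes, which respond to stimuli and to the handling of cells, were mostly higher in resolution than in control arrays. Of 13 tested, 8 were higher and 2 lower in resolution versus control, 76.9% beside 18.6% of all genes, and the summed log2 level of the 14 on the array was 140.0 to 143.9 in control, 142.3 to 146.2 in acute and 152.3 to 155.9 in resolution arrays. Fosb rose 19.4-fold, Nr4a1 4.26-fold, Btg2 2.84-fold and Egr1 2.76-fold. Their part in the level of Il6ra was not tested. The summed level of the 12 alveolar macrophage markers also lay higher in resolution arrays, at 173.4 to 174.7, than in control, at 170.0 to 171.7, and acute arrays, at 169.7 to 171.2, without overlap. Its part was likewise not tested. Of these markers 4 were higher and 1 lower in resolution than in control, 41.7% beside 18.6% of all genes, among them Abcg1, a cholesterol exporter, at 2.68-fold higher, and Fabp4, a fatty acid carrier, at 2.29-fold lower.

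Set among 26 other cytokine receptors that were tested, Il6ra had the highest difference in resolution versus control and in resolution versus acute. The next highest was Il1r1, the signalling receptor of interleukin-1, at 0.79 ± 0.34 (SE) and 1.01 ± 0.36 (SE), which passed in neither comparison (adjusted p = 0.130 and 0.0835) and was below background in every control and acute array. In acute versus control Il6ra stood second at 0.56, between Il2rb at 2.03 ± 0.31 (SE) and Il15ra at 0.38 ± 0.16 (SE). Il6st lay in the middle of the order in resolution versus control, between Il9r at -0.02 and Ifnar2 at -0.05, and 3rd from the lowest in acute versus control, between Tnfrsf1b at -0.30 and Il10ra at -0.54. In resolution versus acute it stood between Il10ra at 0.32 and Il3ra at 0.26. No difference between Il6ra and another receptor was tested.

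By the fit over all genes, 2 of these 26 receptors were higher and 5 lower in resolution than in control, 26.9% beside 18.6% of all genes (9.6% higher and 9% lower). Of all calls in that comparison 51.6% were higher, and 42.6% after median scaling and 44.2% after quantile normalization. The median difference of the 26 was -0.12, against 0.00 over all genes. Csf3r, the receptor of granulocyte colony-stimulating factor, rose 1.61-fold (adjusted p = 0.00659). Tnfrsf1b, a receptor of tumour necrosis factor, fell 2.94-fold (adjusted p = 1.17e-05), Ifnar1, a chain of the type I interferon receptor, fell 1.57-fold (adjusted p = 0.00781) and Il10rb, a chain of the interleukin-10 receptor, fell 1.56-fold (adjusted p = 0.00185). In acute versus control 1 of the 26 rose, Il2rb, at least 1.84-fold (adjusted p = 0.0196), where 0.189% of all genes were higher. This call ended without control replicate 1 (0.0633) or acute replicates 2 (0.104) or 3 (0.0837). Il2rb was above background in all 3 acute arrays and in no control or resolution array, as was Cd3d of the T cell markers. Which cells carried the Il2rb signal was not tested.

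**Figure D2:**
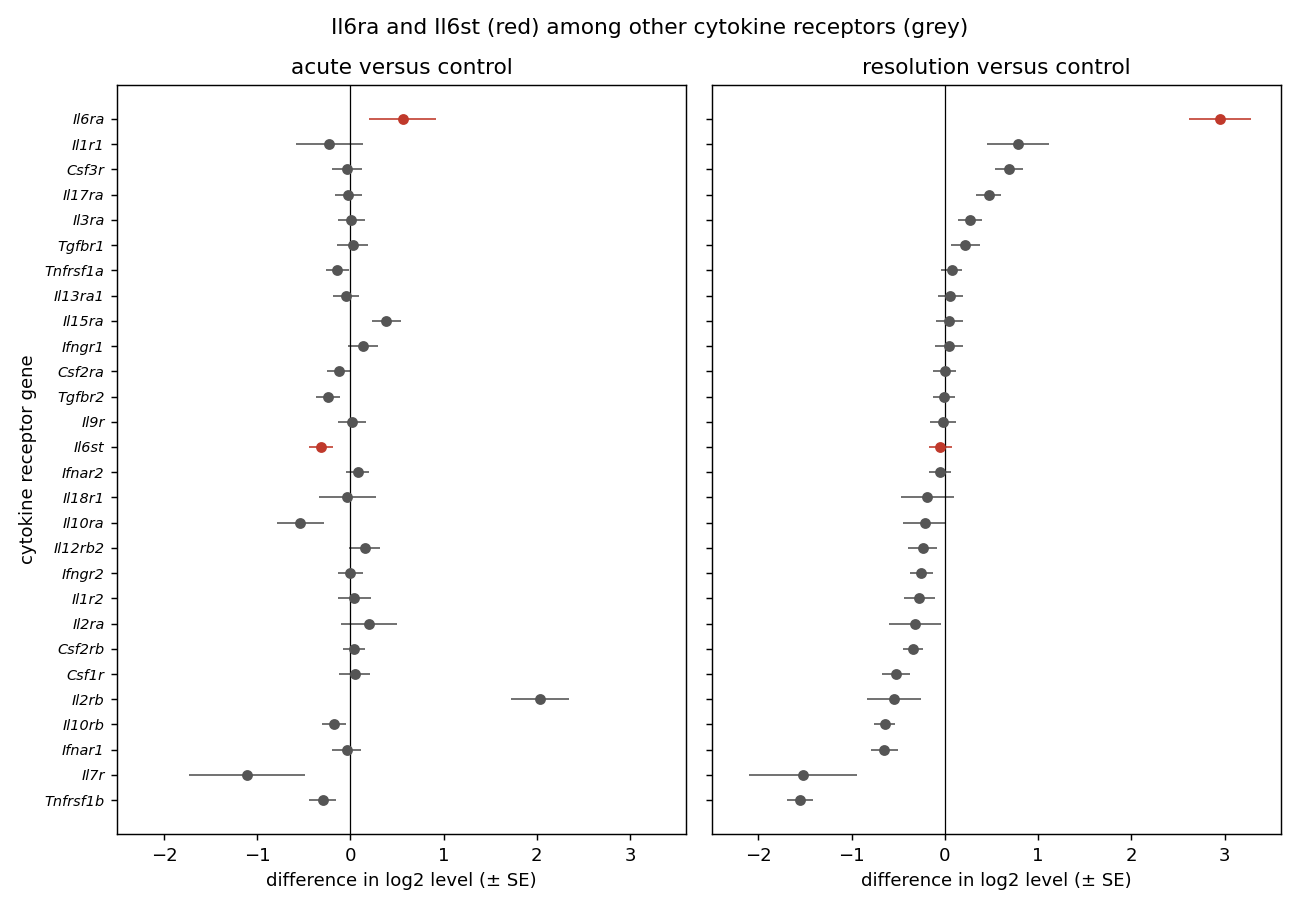
Differences in log2 level, with SE as bars, of Il6ra and Il6st (red) and 26 other cytokine receptors (grey) in acute versus control and resolution versus control, ordered by the latter. Il6ra lies at 2.95 and the next receptor, Il1r1, at 0.79, while Il6st lies at -0.05.

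The genes whose pattern was most like that of Il6ra were found from the root mean square difference between log2 levels over the 11 arrays, each gene centred on its own mean. Among 12142 genes compared, the closest was Themis2, which acts in signalling of macrophages and B cells, at 0.29. Nr4a2, an orphan nuclear receptor, followed at 0.42, Klf13, a zinc finger transcription factor, at 0.43, C5ar2, a receptor of complement C5a, at 0.43 and Tifab, a regulator of signalling downstream of toll-like receptors, at 0.44. As Il6ra, they had their lowest mean in control and their highest in resolution arrays. Themis2 was at 8.46 ± 0.53 (SD, n = 4), 9.20 ± 0.38 (SD, n = 3) and 11.74 ± 0.26 (SD, n = 4) in control, acute and resolution arrays, and its lowest array was control replicate 4, at 7.77. C5ar2 was at 7.55 ± 0.37 (SD, n = 4), 7.72 ± 0.18 (SD, n = 3) and 10.12 ± 0.27 (SD, n = 4). These genes were picked for their likeness, which rests on arrays that share groups, and carry no test. Il6 and Il6st, whose group means span 0.83 and 0.32, were below the span of 1 set for this search.

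**Figure D3:**
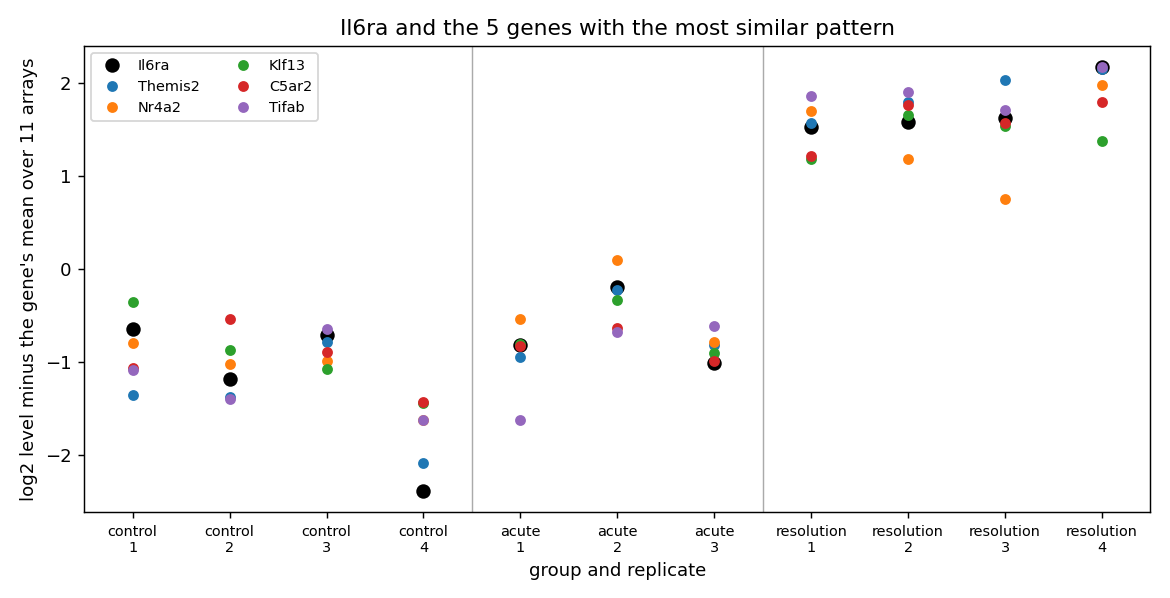
Log2 levels of Il6ra (black) and of the 5 genes most like it in each of the 11 arrays, each gene centred on its mean over the arrays. All 6 genes are highest in the 4 resolution arrays, and Il6ra and Themis2 have their lowest value in control replicate 4.

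The other genes of the pathway were taken from 8 lists by role, with 74 genes in all, 67 of them on the array and 57 tested. These lists, like those of markers and receptors above, were chosen with earlier results of these data known. Their shares beside those of all genes are therefore a description. The 12143 genes tested include genes below background, and the lists were not matched to them in level. In acute versus control 0 of 57 passed the test, with 7 at an unadjusted p under 0.05 in limma and also 0 with trended and robust variances. Over all genes 0.239% were called, 0.189% higher and 0.0494% lower, and 9.05% had an unadjusted p under 0.05. In resolution versus control 7 were higher and 18 lower, 43.9% of the 57, beside 18.6% of all genes. Without single arrays the total of 25 became 18 to 24, lowest at 5 higher and 13 lower without control replicate 3, and it was 6 and 18 without control replicate 4. In resolution versus acute 3 were higher and 17 lower, 35.1%, beside 14.5% of all genes (7.77% higher and 6.69% lower). The latter count fell from 20 to 12 without acute replicate 1, as that over all genes did from 1755 to 1069. The split into higher and lower over all genes moved from 53.7% higher to 40.5% after scaling to a common median and to 37.3% after quantile normalization in that comparison, while that of the pathway genes became 3 higher and 19 lower, and 2 higher and 19 lower. The median difference of the 57 was -0.15 in resolution versus control and 0.01 in acute versus control.

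Among the other ligands of gp130, 2 of 5 tested fell in resolution versus control and 0 rose, 40% beside 18.6% of all genes. Clcf1, cardiotrophin-like cytokine factor, was at 10.30 ± 0.36 (SD, n = 4) in control, 9.47 ± 0.78 (SD, n = 3) in acute and 8.18 ± 0.24 (SD, n = 4) in resolution arrays, a fall of 4.32-fold from control (adjusted p = 0.000228). Lif, leukemia inhibitory factor, fell 2.57-fold to 7.11 ± 0.36 (SD, n = 4) (adjusted p = 0.0131). Against acute the same pair was lower, 40% of the 5 beside 14.5% of all genes (6.69% lower). Clcf1 was lower by 2.45-fold (adjusted p = 0.0133) and Lif by 2.28-fold (adjusted p = 0.0446). These calls ended without acute replicate 1 (adjusted p = 0.0508 and 0.192), and that of Lif also when any of control replicates 1 and 2, acute replicate 3 and resolution replicates 2, 3 and 4 was left out (adjusted p of at least 0.0510). The Lif call against acute also ended without the filter (adjusted p = 0.0561). Osm, oncostatin M, had a difference from control of -0.01 ± 0.24 (SE) in resolution arrays. Il11 and Ebi3 were below background in all arrays.

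Of the other receptor chains that pair with gp130, Lifr, Osmr and Cntfr were below background in all arrays. Il27ra, the receptor chain of interleukin-27, was the only one tested. It was near background, at 6.16 ± 0.45 (SD, n = 4), 6.10 ± 0.25 (SD, n = 3) and 6.27 ± 0.38 (SD, n = 4), and passed in none of the 3 comparisons (adjusted p of at least 0.713).

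Among the genes of alpha chain shedding, 1 of 4 tested fell in resolution versus control, 25% beside 18.6% of all genes. Adam17, the protease that sheds the alpha chain on stimulation, was at 14.10, 14.20, 14.15 and 13.83 in control, 13.99, 13.67 and 13.87 in acute and 13.43, 13.11, 13.15 and 13.24 in resolution arrays. All resolution arrays lay below all others. The fall was 1.79-fold from control (adjusted p = 0.000575) and 1.53-fold from acute (adjusted p = 0.00956), the latter ending without acute replicate 1 (adjusted p = 0.0503). Adam10, the protease of constitutive shedding, had a control mean of 13.87 ± 0.16 (SD, n = 4) and a resolution mean of 13.73 ± 0.07 (SD, n = 4). Those of Rhbdf2, a partner of Adam17, were 13.56 ± 0.16 (SD, n = 4) and 13.39 ± 0.21 (SD, n = 4), and neither gene passed the test.

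Of 9 signal transducers tested, 1 rose and 2 fell in resolution versus control, 33.3% beside 18.6% of all genes. Gab1, a docking adaptor, rose 1.90-fold (adjusted p = 0.00402), and Grb2, an adaptor to the Ras pathway, fell 1.69-fold (adjusted p = 0.00154). Jak2, a kinase bound to gp130, differed by -0.54 ± 0.17 (SE) with adjusted p = 0.0432, and this call ended without the filter (0.0592), with a replicate block (0.0596) and when 1 of control replicates 1 and 3, acute replicate 2 and resolution replicates 1, 2 and 3 was left out (0.0568 to 0.116). In resolution versus acute Jak2 fell 1.86-fold (adjusted p = 0.00630). Stat3 itself was at 13.96 ± 0.07 (SD, n = 4) in control, 14.03 ± 0.08 (SD, n = 3) in acute and 13.78 ± 0.21 (SD, n = 4) in resolution arrays, and passed in no comparison.

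Of the inhibitors, 1 of 4 tested rose in resolution versus control, 25% beside 18.6% of all genes. With a replicate block or without resolution replicate 2 the count was 2. Ptpn6, a phosphatase that restrains cytokine receptors, rose 1.41-fold to 14.26 ± 0.09 (SD, n = 4) (adjusted p = 0.00899). In acute arrays it was at 14.17 ± 0.11 (SD, n = 3) against 13.76 ± 0.16 (SD, n = 4) in control, without overlap but not past the test (adjusted p = 0.308). In resolution versus acute 0 of the 4 passed, with 2 at an unadjusted p under 0.05 in limma, which 28.8% of all genes met, and 1 was lower after quantile normalization. With trended and robust variances, with a replicate block or without resolution replicate 2, 1 was higher, Pias3, at an adjusted p of 0.0498, 0.0255 and 0.0237. Socs3 and Socs1, feedback inhibitors that STAT factors induce, were below background in all arrays.

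Of 8 genes that regulate Il6 mRNA, 3 rose and 2 fell in resolution versus control, 62.5% beside 18.6% of all genes. Zfp36l2, of the tristetraprolin family of RNA-decay proteins, had a control mean of 6.80 ± 0.28 (SD, n = 4) and a resolution mean of 8.78 ± 0.19 (SD, n = 4), a rise of 3.96-fold (adjusted p = 6.72e-06). It was 3.26-fold above acute (adjusted p = 6.28e-05). Other calls lay near the threshold. Zfp36l1 at 0.92 ± 0.26 (SE, adjusted p = 0.0281), Zfp36 at 0.63 ± 0.18 (SE, adjusted p = 0.0254) and Rc3h2 at -0.71 ± 0.21 (SE, adjusted p = 0.0316) each lost the call without several single arrays, with adjusted p of up to 0.0777, 0.0686 and 0.0870. The count of 5 became 3 without control replicate 1 or resolution replicate 1 or with a replicate block, 2 without resolution replicate 3 and 1 without control replicates 2 or 3. Zc3h12a, the endonuclease Regnase-1 that cleaves Il6 mRNA, had a control mean of 13.13 ± 0.18 (SD, n = 4) and a resolution mean of 13.03 ± 0.24 (SD, n = 4).

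Among transcription factors that act at the Il6 promoter, 1 of 6 tested rose and 2 fell in resolution versus control, 50% beside 18.6% of all genes. Rela, the NF-kB subunit p65, fell 1.46-fold (adjusted p = 0.00784) and Jun, an AP-1 subunit, 1.82-fold (adjusted p = 0.00357). Cebpd, a C/EBP factor, passed with 0.85 ± 0.17 (SE, adjusted p = 0.00338) although all its control and resolution arrays were below background, so no fold is given. Cebpb, also a C/EBP factor, was below background in all arrays and was not tested, and Nfkb1 had no entry among the named genes. The NF-kB, AP-1 and C/EBP matches are among the stretches in capitals in the Il6 sequence. Il6 was near background in each group, as its values show. The part of these factors in the Il6 level was not tested.

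Of 20 STAT3 target genes tested, 1 rose and 9 fell in resolution versus control, 50% of the list beside 18.6% of all genes. Their median difference was -0.45. Bcl6, a transcriptional repressor, fell 6.97-fold (adjusted p = 5.6e-05), Etv3, an ETS repressor, 3.36-fold (adjusted p = 0.000104), Bcl3, a cofactor of NF-kB, 3.23-fold (adjusted p = 5.57e-05) and Bcl2l1, which encodes the survival protein Bcl-xL, 2.95-fold (adjusted p = 0.000241). In acute versus control 0 of 20 passed, beside 0.239% of all genes. An unadjusted p under 0.05 in limma was met by 2 of the 20, beside 9.05% of all genes. In resolution versus acute 8 fell and 0 rose, 40% beside 14.5% of all genes (7.77% higher and 6.69% lower). Many of these genes have other regulators besides STAT3.

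**Figure D4:**
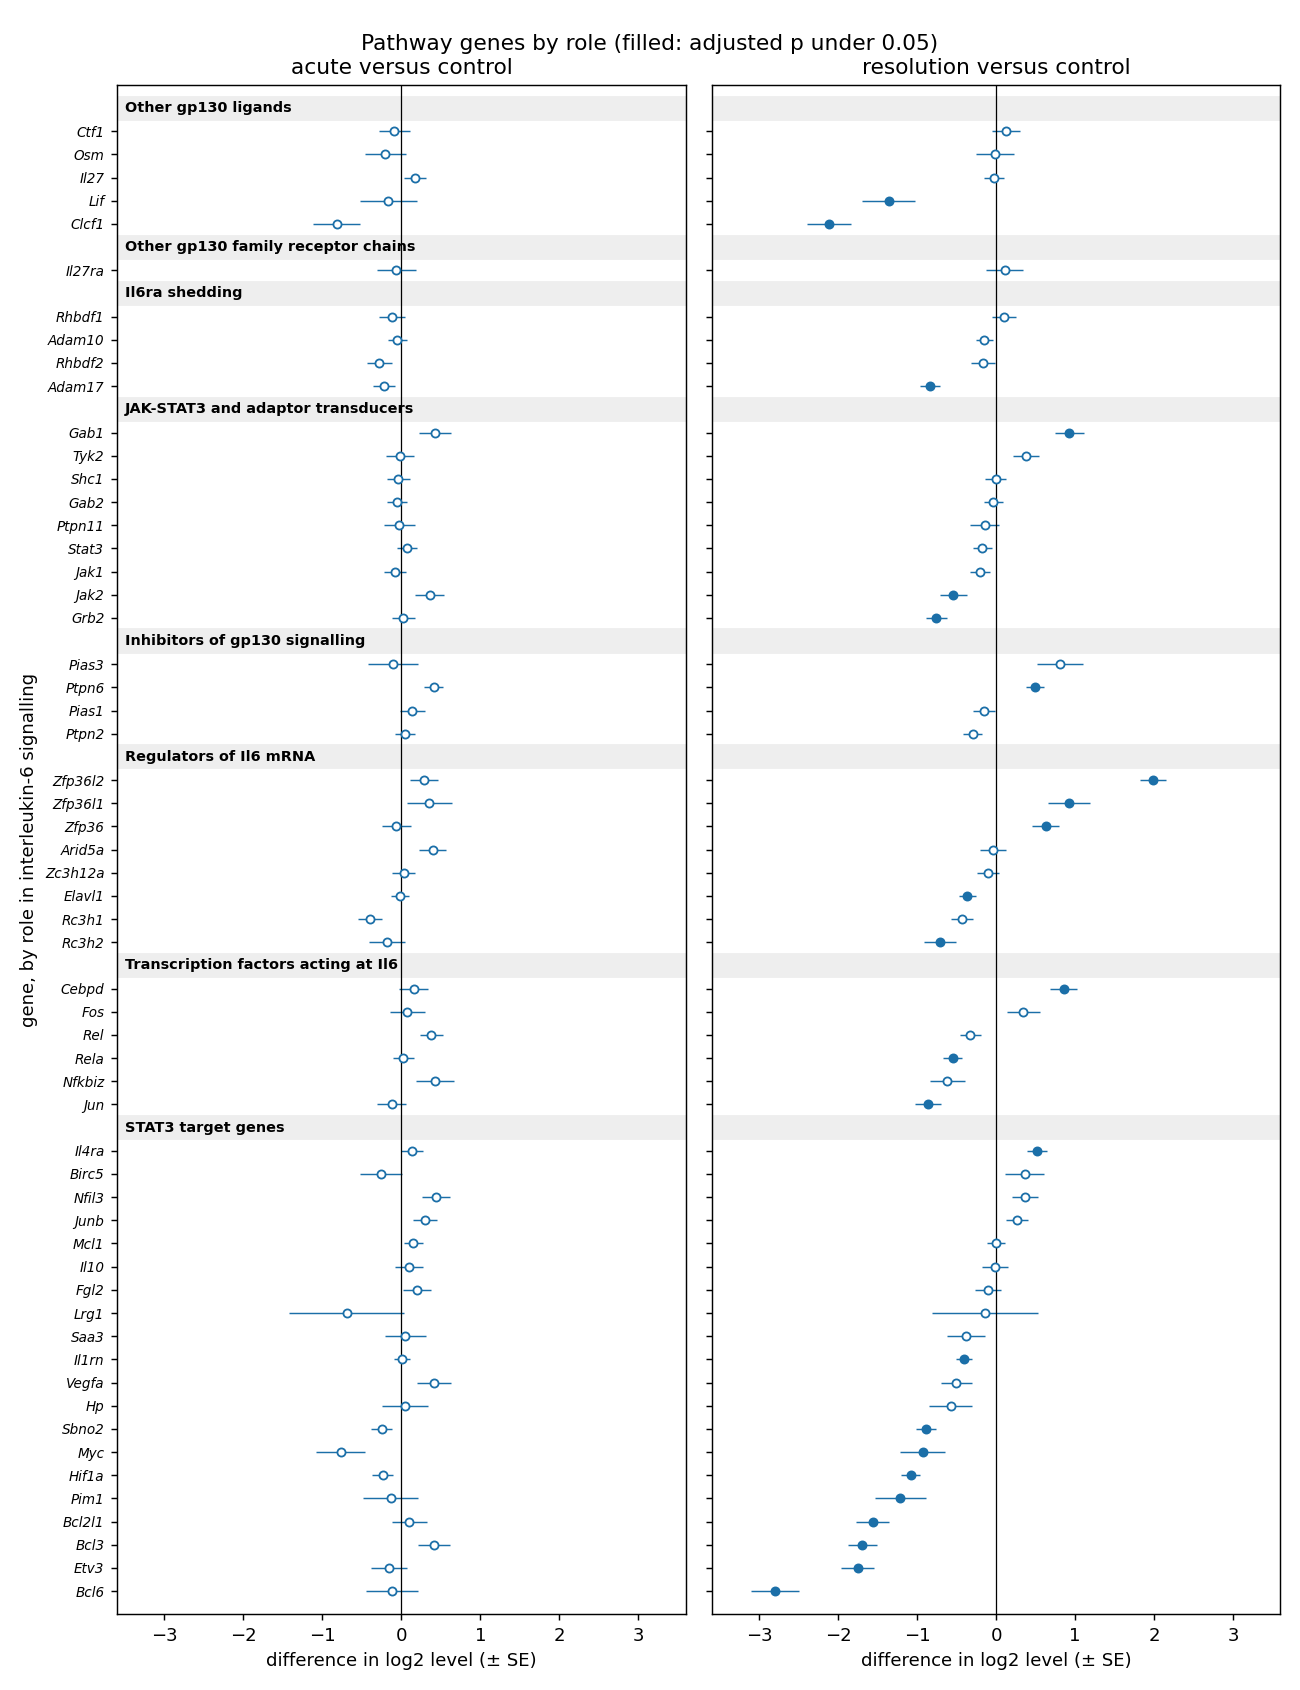
Differences in log2 level, with SE as bars, of the 57 tested pathway genes by role in acute versus control and resolution versus control. Filled points passed an adjusted p of 0.05 in limma, none in acute versus control and 25 in resolution versus control, of which 18 lie below 0.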

How the data were processed

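RNA of 11 samples was extracted with Trizol, labelled by a 3' IVT Pico kit and hybridised to Affymetrix arrays, per the labels' protocols. The authors deposited intensities for 28846 probe sets, made with Affymetrix Expression Console, per the submitters' processing notes. Their scale is not stated and was taken as linear from the range of the values, and every fold and log2 difference rests on this. For version, summary algorithm and genome build: not given in the sources used here. Values were used as log2(intensity + 1) without further scaling. Of the clusters 19572 have 1 gene symbol, and the brightest of each symbol stood for the gene. A gene was tested where at least 3 arrays lay above their 40th percentile. All 11 arrays entered a model with a mean for each group in limma 3.58.1 (R 4.3.3). Its two-sided p-values were adjusted by Benjamini-Hochberg over 12143 genes, and 0.05 was the threshold. The SE of a difference is the moderated one. A fold is "at least" where the lower group's mean lay within 1 SD of the background or below it, and is then taken to the background or that mean. Up to 4 called genes per list were named by size, otherwise the gene with the smallest p. The procedure was tested on simulated data. In acute versus control it recovered 20.3% of 1.5-fold, 75.4% of 2-fold and 97.0% of 4-fold changes. For resolution versus control these were 37.3%, 91.0% and 98.3%, and for resolution versus acute 31.8%, 74.2% and 100%. An absent call in acute versus control can therefore miss a small change. Each rate rests on a single simulation in which 58 to 75 genes were given that change. Fewer genes were changed in it than were called in the comparisons with resolution, so the rates need not hold there. The members and lists were chosen with earlier results of these data known. The number of arrays limits the precision.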

Additional observations from a re-analysis of the deposited data

Results flagged for a closer look

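In a group of 4 arrays, a gene was singled out where the gap between the highest or lowest array and its nearest neighbour as a ratio to the group's range exceeded Dixon's critical value. Of 120 groups of 4 checked over 60 genes 5 met this, where chance gives about 1 in 20. Il6ra in resolution replicate 4 was at 14.33 against 13.79 in the next array, a ratio of 0.852, and without this array resolution was 2.80 above control. Nr4a1, an immediate early gene, was highest in the same array, at 14.57 against 13.91 (0.841). Il27ra was highest in resolution replicate 2 at 6.84 against 6.12 (0.907), the only resolution array in which it was above background. Abcg1 and Egr1 were lowest in resolution replicate 2, at 13.96 against 14.26 (0.892) and at 10.15 against 10.91 (0.858).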

How the results depend on the processing

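The differences of Il6, Il6ra and Il6st moved by less than the gene's SD within groups, pooled over the 3 groups, under every setting run for them. Without single arrays the Il6ra difference was 2.57 to 3.15 in resolution versus control, 2.22 to 2.63 in resolution versus acute and 0.17 to 0.76 in acute versus control. For Il6 these ranges were -0.83 to -0.48, -1.07 to -0.71 and 0.12 to 0.34, and for Il6st -0.13 to -0.01, 0.20 to 0.31 and -0.40 to -0.26. With the 75th percentile as background the arrays above background were the same in number for each group. No other cluster of these 3 symbols exists, so that alternative could not be run. In acute versus control 29 genes were called, 56 with trended and robust variances, and 6 to 29 without single arrays (13 and 18 without control replicates 1 and 2, 6 and 10 without acute replicates 2 and 3). Its share of higher calls was 79.3%, and 89.3% after median scaling and 90.6% after quantile normalization. In resolution versus acute 1755 were called, and 1069 to 1837 without single arrays, with 12 to 20 of the pathway genes. In resolution versus control 2259 were called, and 1829 to 2242 without single arrays, with 18 to 24 of the pathway genes. Of 1802 values for 106 named differences, 88 lost and 3 gained the call and 0 reversed. A change of sign counted as reversed only where the difference passed in the main fit or under the other setting. Il27ra, which passed in no comparison, did change sign without single arrays. Its ranges were -0.28 to 0.06 in acute versus control, -0.11 to 0.20 in resolution versus control and -0.02 to 0.29 in resolution versus acute. The labels do not say whether arrays of the same replicate number belong together. Of 10 pairs of same-numbered arrays 0 had deviations correlated above 0.1, from -0.12 to 0.09 across genes, and 1 of 11 arrays was closest to its own number. With so few arrays in a group, these correlations cannot settle whether same-numbered arrays were handled together. With a replicate block 25 genes were called in acute versus control, where Il6ra differed by 0.44. The block gave 2120 genes and 2.95 in resolution versus control, and 1455 genes and 2.51 in resolution versus acute.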
